A study of Homo sapiens with 12 samples.

Results

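The response of BT-549 cells to everolimus was followed across genes and pathways. BT-549 is an established human breast cancer line of the triple-negative class, which lacks oestrogen and progesterone receptors and amplified HER2. Cells were kept for 48 h in 10 uM everolimus or in DMSO, the solvent control, and total RNA was read on bead arrays, 3 per group, which are 6 of the 12 arrays of the study. The other 6 hold a second triple-negative line, MDA-MB-231, under the same treatments. The labels name no genetic change, and each line is 1 cell population grown in culture, so the results describe 1 line at 1 dose and 1 time. Nothing in the labels says whether the 3 replicates of a group were separate cultures, so the p-values rest on the spread seen between these arrays, and that spread may be purely technical. The title of the study names mTOR inhibition, homologous recombination and SUV39H1 as its subject. Of 20046 genes with a probe of 1 gene symbol, 11764 had a signal above the background floor of 6.77 on the log2 scale in at least 3 of 12 arrays, and these were tested.

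Everolimus binds the small immunophilin FKBP12, and the complex inhibits mTOR complex 1, a kinase that is switched on by growth factors and by amino acids at the lysosome. When active, this kinase promotes ribosome production and the translation of messages with a 5′ terminal oligopyrimidine (TOP) tract, drives programmes for glycolysis, lipid synthesis and mitochondria, and holds back autophagy and the lysosomal gene programme. It also restrains its own upstream input, so that inhibition is known to release signalling through growth factor receptors, AKT and ERK in many cells. An array reads how much RNA of a gene is present, and not how much of it is translated.

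Most mesenchymal markers were above the floor. In these marker counts that means above it on at least 3 of the 12 arrays of both lines, so a gene can pass through MDA-MB-231 arrays alone. Vimentin (VIM), the intermediate filament of mesenchymal cells, read 13.45, 13.73 and 14 in DMSO and 13.66, 14.20 and 14.09 in everolimus, and its groups overlapped. Of 10 mesenchymal markers 9 were above the floor, ZEB1 being the exception, whereas 6 of 10 epithelial junction markers were below it, among them E-cadherin (CDH1). Of 12 luminal and receptor-positive markers 9 were above the floor, and the 3 below it were ESR1 and PGR, which encode the oestrogen and progesterone receptors, and TFF1, an oestrogen-induced trefoil factor. GATA3, a transcription factor of luminal cells, was the 1 of the 9 that was called, and it fell by 0.87. Below the floor were also 6 of 10 haematopoietic and 4 of 6 endothelial markers. Of the 5 tested genes of the haematopoietic and endothelial lists none was called, and these were CD14, LYZ, CSF1R, VWF and TEK. VWF, a clotting protein of endothelial cells, read 6.45, 6.56 and 6.60 in DMSO and 6.42, 8.31 and 8.22 in everolimus. Among the BT-549 arrays it was thus above the floor on everolimus replicates 2 and 3 only.

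One array stood apart. Everolimus replicate 1 correlated with the other 2 everolimus arrays at r = 0.929 and 0.927 over the tested genes, while those 2 correlated with each other at r = 0.991 and the DMSO arrays with one another at 0.961 to 0.989. Its deviations from the group mean had an SD of 0.393, against 0.0822 to 0.229 on the other 5 BT-549 arrays. In 920 genes it lay more than 1 log2 unit from the mean of everolimus replicates 2 and 3, whereas these differed from each other by that much in 10 genes. Each array had 9840 to 10360 tested genes above the floor. Replicate 1 also had the largest SD of deviations in each MDA-MB-231 group and, narrowly, in the BT-549 DMSO group. What set everolimus replicate 1 apart was not tested. Results are therefore given with it and, where they changed, without it.

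Everolimus moved a sizeable part of the transcriptome, in both directions. Of 11764 genes 1972 were called, which is 16.8% (limma with Benjamini-Hochberg adjustment, adjusted p under 0.05). Of these 1122 were higher in everolimus (9.54% of genes tested) and 850 lower (7.23%). Before adjustment 3720 genes had p under 0.05. The median log2 fold change was 0.70 among the genes called higher and -0.70 among those called lower. Fold changes of 2 or more were seen in 236 called genes that were higher and 181 that were lower. Over all genes the median log2 fold change was 0.04 and the quartiles were -0.17 and 0.27. The 56.9% share of higher genes among the calls depended on how arrays were scaled. Over all probes the 12 array medians were already equal (6.65), but over the tested genes they ran from 7.71 to 7.83. When the medians over the tested genes were set equal, 877 genes were higher and 1088 lower (44.6% higher).

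The calls followed the signal. Genes were ranked by mean signal into 4 equal bins of 2941. In the dimmest bin 71 were called higher and 22 lower, with 0 at 2-fold or more, whereas in the brightest bin 364 were called higher and 365 lower, with 190 at 2-fold or more. The deposited signals still hold background, so fold changes of dim genes are compressed. The 3 everolimus values did not overlap the 3 DMSO values in 1918 of the 1972 called genes, and in 3842 of all genes tested (32.7%). Leaving out 1 array at a time, the count of calls ranged from 795 without DMSO replicate 2 to 3289 without everolimus replicate 1. Without the latter array 1980 genes were called higher and 1309 lower, so list counts without it are to be read beside these. All 1972 genes kept their direction in the 12 leave-one-out fits, and 708 of them (411 higher, 297 lower) were called in every one. Each gene said below to have risen or fallen is one of these 708 unless the sentence says otherwise. Changes given as a rise or fall by a number, and values of probes, are log2 fold changes of everolimus over DMSO, and levels are deposited log2 signals.

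**Figure D1:**
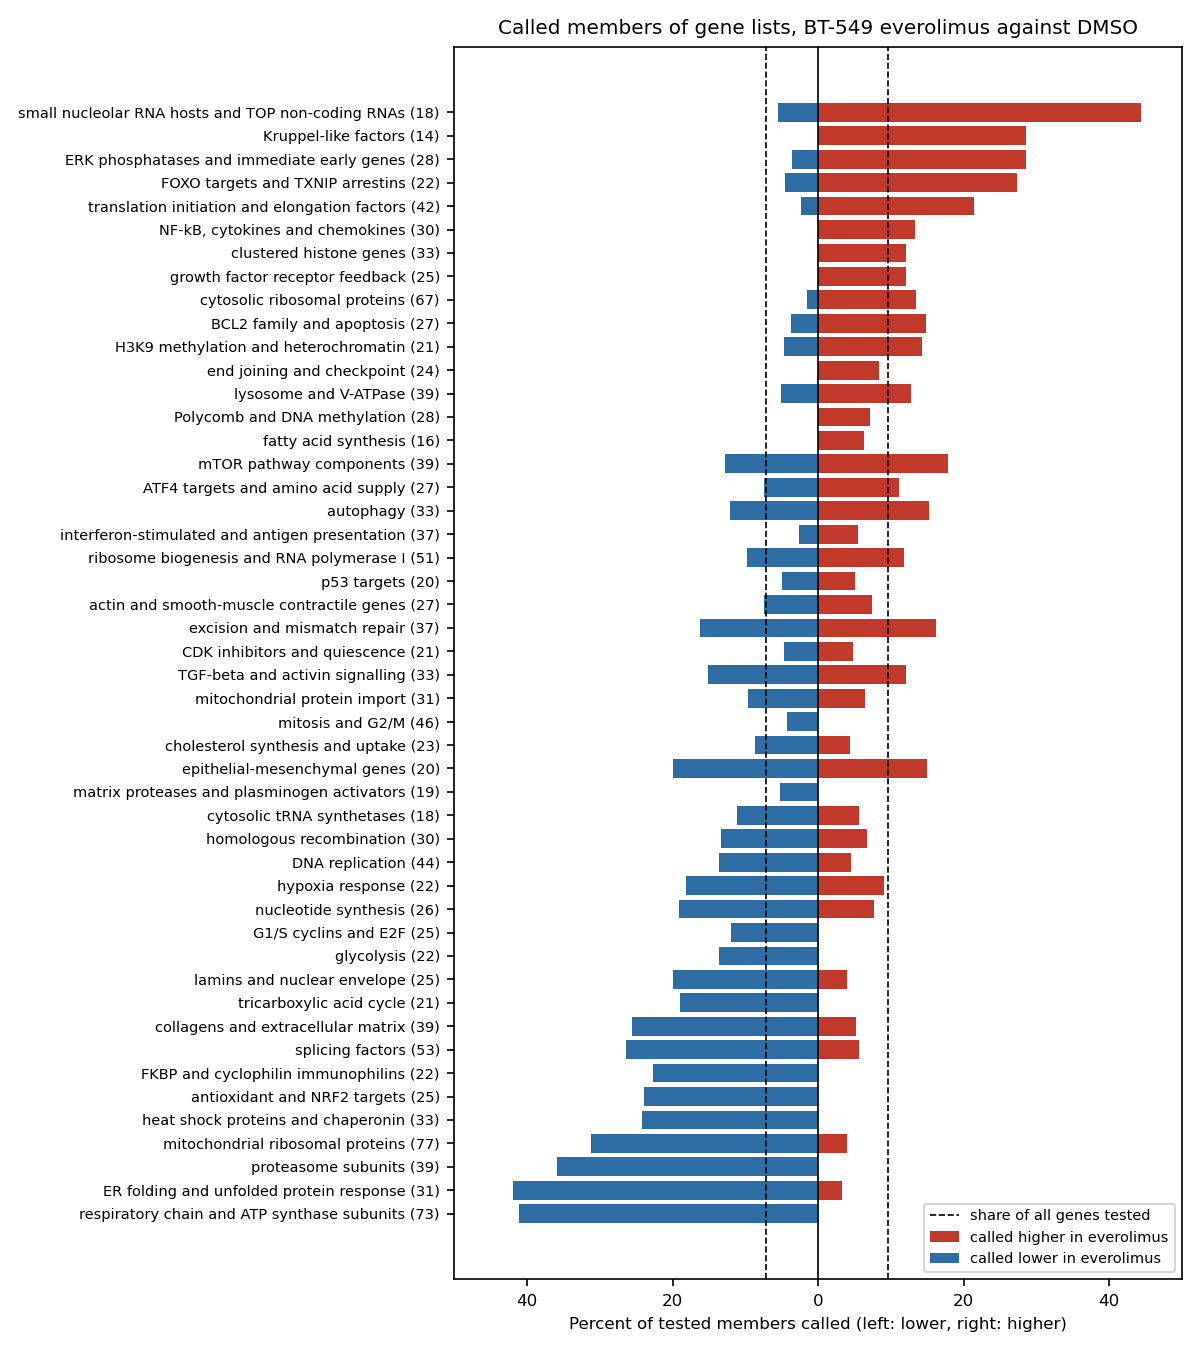
Percent of the tested members of each gene list that were called higher (right, red) or lower (left, blue) in everolimus against DMSO, with the number of tested members in brackets and dashed lines at the shares of all genes tested (9.54% higher, 7.23% lower). Respiratory chain, endoplasmic reticulum and proteasome genes lie furthest to the left, and hosts of small nucleolar RNAs furthest to the right.

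The genes of the mTOR pathway itself moved both ways. Of 39 tested, 7 were called higher (17.9%, against 9.54% of all genes) and 5 lower (12.8%, against 7.23%). The median log2 fold change was 0.03. MTOR, the target kinase, read 8.50, 9.25 and 9.61 in DMSO and 8.84, 9.29 and 9.36 in everolimus (log2 fold change 0.04, SE 0.28, adjusted p = 0.944), and the groups overlapped. Among the members that rose was SGK1, a kinase that mTOR complex 2 activates, which read 10.70, 10.64 and 10.63 in DMSO and 12.19, 11.86 and 11.90 in everolimus. All 3 everolimus values lay above all 3 DMSO values, a 2.51-fold higher level (log2 fold change 1.33, SE 0.17, adjusted p = 0.0012), and its further probes gave 0.81 and 1.08. RRAGC, one of the Rag GTPases that bring mTOR complex 1 to the lysosome, rose by 0.93. Among those that fell, DDIT4 encodes REDD1, which restrains mTOR complex 1 under stress. It read 12.66, 12.09 and 10.50 in DMSO and 9.23, 8.86 and 8.71 in everolimus, and the groups did not overlap (log2 fold change -2.82, SE 0.43, adjusted p = 0.00262). MAPKAP1, which encodes the SIN1 subunit of mTOR complex 2, fell by 0.92 (further probes -0.61 and -0.35), and TBC1D7, the third subunit of the TSC complex, by 0.64. The count of members called higher ranged from 2 (without DMSO replicate 2 or everolimus replicate 3) to 9 (without everolimus replicate 1) and the count called lower from 3 (without DMSO replicates 1 or 2 or everolimus replicate 2) to 6 (without everolimus replicate 1).

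Some genes downstream of the FOXO factors, which AKT restrains, rose. In the FOXO and arrestin list 6 of 22 tested genes were called higher and 1 lower (median 0.23). The shares were 27.3% and 4.55%, against 9.54% and 7.23% of all genes. The 6 were TXNIP, KLHL24, KLF6, FOXO3, CREBRF and IRS2. TXNIP, an arrestin-like protein that limits glucose uptake, read 7.07, 7.32 and 7.67 in DMSO and 8.19, 9.43 and 9.62 in everolimus. It was 3.31-fold higher with no overlap (log2 fold change 1.73, SE 0.35, adjusted p = 0.00962). FOXO3, one of the FOXO factors, read 9.65, 9.39 and 9.18 in DMSO and 10.76, 10.15 and 10.45 in everolimus, also without overlap (log2 fold change 1.05, SE 0.19, adjusted p = 0.00612), but its further probe gave 0.03 and was not called. IRS2, an adaptor of the insulin and IGF receptors, rose by 0.92. AXL, a receptor tyrosine kinase of mesenchymal cells, rose by 1.80 and by 1.42 on its further probe. It is on a separate list of growth factor receptor feedback genes, which also holds IRS2. Of 25 genes tested there, 3 were called higher (12%, near the 9.54% of all genes) and 0 lower. Catalase (CAT), which breaks down hydrogen peroxide and is a FOXO target in other settings, went the other way. CAT read 9.64, 9.33 and 8.94 in DMSO and 8.06, 7.93 and 7.72 in everolimus (log2 fold change -1.40, SE 0.17, adjusted p = 0.00118), the groups did not overlap, and its further probe gave -1.18.

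Feedback genes of the ERK cascade were among the lists with most rises. Of 28 ERK phosphatases and immediate early genes 8 were called higher and 1 lower (28.6% and 3.57%, against 9.54% and 7.23% of all genes). The list median was 0.49. DUSP6, a phosphatase that switches off ERK in the cytoplasm, read 8.03, 8.49 and 8.41 in DMSO and 9.46, 9.96 and 9.80 in everolimus. It was 2.69-fold higher (log2 fold change 1.43, SE 0.19, adjusted p = 0.00166), while its further probe gave 0.02. FOSB, an immediate early transcription factor, rose by 0.91, and DUSP14 fell by 0.76. The largest change of the list was less stable. DUSP5, which acts on nuclear ERK, read 8.33, 8.52 and 8.71 in DMSO and 9.30, 10.87 and 11.05 in everolimus (log2 fold change 1.89, SE 0.42, adjusted p = 0.0135), and was called in 10 of 12 leave-one-out fits, the exceptions being those without DMSO replicate 2 or everolimus replicate 3, with adjusted p up to 0.0584. The count called higher ranged from 2 (without DMSO replicate 2) to 10 (without everolimus replicate 1), and 2 of the 8 were called in every such fit. The Kruppel-like factors, zinc finger regulators of growth, gave 4 called higher of 14 (28.6%, against 9.54% of all genes) and 0 lower. KLF6 rose by 1.12 and KLF13 by 0.96. KLF2 had a log2 fold change of 1.95 (called in 8 of 12 leave-one-out fits, not without DMSO replicates 1 or 2 or everolimus replicates 2 or 3, adjusted p up to 0.117). KLF5 had one of 1.09 (called in 7 of 12 leave-one-out fits, not without DMSO replicates 1, 2 or 3 or everolimus replicates 2 or 3, adjusted p up to 0.119).

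Hosts of small nucleolar RNAs showed the highest share of rises of the lists plotted. These transcripts carry small RNAs that guide the modification of ribosomal RNA in their introns, and many begin with a TOP tract. Of 18 tested, 8 were called higher and 1 lower, against 9.54% and 7.23% of all genes, and the median log2 fold change was 0.58. SNHG1 read 9.15, 9.29 and 9.44 in DMSO and 9.81, 10.71 and 10.52 in everolimus. SNHG32 read 11.77, 11.72 and 11.64 in DMSO and 12.78, 13.05 and 12.82 in everolimus. In both, every everolimus array was above every DMSO array, with log2 fold changes of 1.05 (adjusted p = 0.0079) and 1.17 (adjusted p = 0.000927), although the further probe of SNHG32 gave 0.21. ZFAS1, TAF1D and SNHG6 also rose, by 0.93, 1.12 (further probe 1.09) and 0.76. The exception was SNHG10, with -0.62 (called in 8 of 12 leave-one-out fits, not without DMSO replicates 1 or 2 or everolimus replicates 2 or 3, adjusted p up to 0.121). Without everolimus replicate 1 the list had 10 members called higher and 2 lower.

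Several translation factors rose, but most genes of this list, and of the ribosomal protein list, were not called. Of 42 initiation and elongation factors 9 were called higher and 1 lower (21.4% and 2.38%, against 9.54% and 7.23% of all genes). The median of these factors was 0.18. EIF3D, a subunit of the initiation factor that loads messages onto the ribosome, read 9.90, 10.51 and 10.60 in DMSO and 11.74, 11.21 and 11.48 in everolimus (log2 fold change 1.14, SE 0.24, adjusted p = 0.0105), with no overlap. EIF4A2, an RNA helicase, rose by 0.89, and EEF2, the factor that moves the ribosome along the message, by 0.74. EIF5, which triggers GTP hydrolysis at the start codon, fell on its brightest probe by 1.36, but its further probes gave -0.03 and 0.07. Of 67 cytosolic ribosomal protein genes 9 were called higher (13.4%) and 1 lower (1.49%), with a median of -0.01. RPL28 read 8.06, 7.92 and 7.73 in DMSO and 9.60, 9.05 and 9.49 in everolimus, 2.78-fold higher (log2 fold change 1.48, SE 0.17, adjusted p = 0.000927). RPL37 rose by 1.59 on its brightest probe and gave 0.13 on the further one. RPL29 read 10.53, 10.59 and 10.93 in DMSO and 9.43, 9.35 and 8.72 in everolimus, 2.86-fold lower (log2 fold change -1.52, SE 0.18, adjusted p = 0.00106), and its further probe gave -1.44. Ribosomal protein genes have many near-identical processed copies, so a single probe of such a gene is uncertain. The count of ribosomal proteins called higher ranged from 2 (without DMSO replicate 2) to 9 (without MDA-MB-231 DMSO replicates 1 or 3 or MDA-MB-231 everolimus replicate 1), and that of translation factors from 5 (without DMSO replicate 2 or everolimus replicate 3) to 10 (without everolimus replicate 1).

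Factors that build the ribosome were called at shares near those of all genes. Of 51 ribosome biogenesis and RNA polymerase I genes 6 were called higher (11.8%, against 9.54% of all genes) and 5 lower (9.8%, against 7.23%). POLR1D, a subunit shared by RNA polymerases I and III, rose by 0.95 (further probe 0.72), and NOB1, a nuclease that finishes the small subunit RNA, rose by 1. LTV1 and NIP7, which assist assembly of the subunits, fell by 0.79 and 0.72. A probe for 28S ribosomal RNA, RNA28SN5, read 12.71, 12.79 and 13.06 in DMSO and 11.89, 9.30 and 8.44 in everolimus (log2 fold change -2.98, SE 0.65, adjusted p = 0.0131), with a further probe at -1.54. RNA amplification of this kind starts at poly(A) tails, so the probe does not measure the amount of ribosomes. Its everolimus values were also unequal, with replicate 1 the highest.

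The list with the most members called lower was that of the nuclear genes of the respiratory chain, which passes electrons to oxygen and drives ATP synthesis. Of 73 tested subunits 30 were called lower and 0 higher, against 7.23% and 9.54% of all genes, and the median log2 fold change was -0.37. COX5B, a subunit of cytochrome c oxidase, read 12.43, 12.35 and 12.29 in DMSO and 11.74, 11.45 and 11.21 in everolimus. NDUFA12, of complex I, read 11.01, 11.17 and 11.08 in DMSO and 9.98, 10.38 and 9.63 in everolimus. Neither gene's groups overlapped, and the log2 fold changes were -0.89 (adjusted p = 0.00278) and -1.09 (adjusted p = 0.00319). UQCRB of complex III, the largest fall of the list, read 11.78, 11.80 and 11.92 in DMSO and 10.64, 10.55 and 10.30 in everolimus (log2 fold change -1.34, SE 0.12, adjusted p = 0.000252). Its further probes gave -0.13 and 0.01, so that fall was seen on 1 probe. Falls were spread over the complexes, with UQCR10 and UQCRQ of complex III at -1.07 (further probes -0.57 and -0.11) and -0.78, COX6C and COX7A2 of complex IV at -0.80 and -0.74, and ATP5MF of the ATP synthase at -0.68 (further probe -0.73). The list median was below 0 on each everolimus array relative to the DMSO means (-0.31, -0.36 and -0.44). The count called lower ranged from 17 (without DMSO replicate 2 or everolimus replicate 3) to 33 (without everolimus replicate 1).

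Mitochondrial ribosomal proteins, which translate the messages of the mitochondrial genome, were also called lower in number. Of 77 tested 24 were called lower and 3 higher (31.2% and 3.9%, against 7.23% and 9.54% of all genes), with a median of -0.34. MRPL47 read 9.62, 9.79 and 9.99 in DMSO and 8.17, 8.22 and 7.75 in everolimus, 3.37-fold lower (log2 fold change -1.75, SE 0.20, adjusted p = 0.000927). The groups did not overlap, and the further probe gave -0.48. MRPL52, MRPL17 and MRPS7 gave -1.02, -0.81 and -0.78. MRPL10 went the other way with a rise of 0.72. The count called lower ranged from 8 (without DMSO replicate 2) to 32 (without everolimus replicate 1). Relative to the DMSO means the median of the list was -0.32, -0.32 and -0.39 on everolimus arrays 1, 2 and 3, so replicate 1 did not stand apart here.

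Other mitochondrial genes changed less widely. Of 21 tricarboxylic acid cycle genes 4 were called lower (19%, against 7.23% of all genes) and 0 higher. SUCLA2, a subunit of succinyl-CoA synthetase, was the one called in every leave-one-out fit (-0.74, further probe -0.81). Of 31 protein import genes 3 were called lower and 2 higher (9.68% and 6.45%, against 7.23% and 9.54% of all genes). HSPE1, the co-chaperonin of the matrix folding machine, read 12.13, 12.59 and 12.73 in DMSO and 11.26, 11.41 and 10.66 in everolimus (log2 fold change -1.37, SE 0.19, adjusted p = 0.00194), without overlap, and its further probe gave -1.03. TOMM5 of the outer membrane pore fell by 1.29, while TIMM9 and PAM16, of the inner membrane machinery, rose by 0.90 and 0.72.

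In glycolysis 3 enzymes fell while the rest of the pathway did not pass the test. Of 22 tested genes 3 were called lower (13.6%, against 7.23% of all genes) and 0 higher. The list median was -0.16 (-0.256 without everolimus replicate 1). Lactate dehydrogenase A (LDHA), which turns pyruvate into lactate, read 13.21, 13.21 and 13.15 in DMSO and 11.95, 11.89 and 11.66 in everolimus. It was 2.56-fold lower (log2 fold change -1.36, SE 0.13, adjusted p = 0.00034), the groups were far apart, and its further probes gave -1.10 and -0.32. PGK1, phosphoglycerate kinase, read 12.30, 12.03 and 11.69 in DMSO and 11.09, 10.59 and 10.42 in everolimus (log2 fold change -1.31, SE 0.19, adjusted p = 0.00198), with a further probe at -1.60. PGAM1, phosphoglycerate mutase, gave -2.66 on its brightest probe and -2.82 on the further one. The count called lower was 7 without DMSO replicate 3. The hypoxia list, which holds targets of the HIF factors, gave 4 called lower and 2 higher of 22 (median -0.41). Its shares were 18.2% and 9.09%, against 7.23% and 9.54% of all genes. P4HA1, a collagen prolyl hydroxylase, and EGLN1, the oxygen sensor that marks HIF for destruction, fell by 1.48 and 1.06, and DDIT4 is also on this list. ERO1A, an oxidase of the endoplasmic reticulum, rose by 0.61. On the DMSO arrays the hypoxia median itself varied (0.30, 0.07 and -0.34 for replicates 1, 2 and 3), and everolimus replicate 1 was lowest of all at -0.58. Without that array the list median was -0.185, with 5 members called lower and 3 higher.

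The promoter of LDHA is shown because it is a classic target of HIF and MYC, which bind related letters. The 250 bases before its start (RefSeq, GRCh38.p14, chr11:18394313-18394562, + strand, 5′ to 3′) are printed with each ACGTG or its complement CACGT, the core of a hypoxia response element, in capitals.
LDHA: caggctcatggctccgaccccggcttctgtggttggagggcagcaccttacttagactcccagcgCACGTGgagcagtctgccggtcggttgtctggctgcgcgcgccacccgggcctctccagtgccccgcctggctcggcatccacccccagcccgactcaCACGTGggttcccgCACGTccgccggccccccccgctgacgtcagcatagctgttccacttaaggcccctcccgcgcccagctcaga
The core was found 5 times here over both strands, since CACGTG holds it on each strand. In the window searched, 250 bases before to 50 after the start on both strands, it was in 27.0% of the promoters of 9422 tested genes, in 30.1% of those of genes called higher, in 29.6% of those called lower, and in 10 of 18 (55.6%) of the hypoxia list. A match of letters is a description of the sequence and not a bound site. The other 2342 tested genes had no entry in the table.

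Subunits of the proteasome, which degrades tagged proteins, were among the genes that fell. Of 39 proteasome subunits 14 were called lower (35.9%, against 7.23% of all genes) and 0 higher, and the median was -0.39. PSMD1, a scaffold of the regulatory particle, read 9, 9.10 and 9.34 in DMSO and 8.36, 8.08 and 8.27 in everolimus. PSMA4, of the outer ring of the core particle, read 11.83, 11.94 and 12.01 in DMSO and 10.95, 11.21 and 11.23 in everolimus. All everolimus values were below all DMSO values in both, with log2 fold changes of -0.91 (adjusted p = 0.00154) and -0.80 (adjusted p = 0.00403), and the further probe of PSMA4 gave -0.97. PSMC4, an ATPase of the base, had the largest change at -2.10, and -1.83 and -1.40 on its further probes. PSMD14, PSMB1, PSMA1 and SEM1 gave -0.89, -0.58, -0.63 (further probe -1.29) and -0.79 (further probe -0.63). Everolimus replicate 1 was the lowest array of the list (-0.55, -0.21 and -0.35 for replicates 1, 2 and 3), and the count called lower ranged from 10 (without DMSO replicate 2) to 17 (without MDA-MB-231 everolimus replicate 1).

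Folding genes of the endoplasmic reticulum were called lower at a higher share than all genes (41.9% against 7.23%). Of 31 endoplasmic reticulum folding genes 13 were called lower and 1 higher (median -0.40). SDF2L1, a stress-induced partner of the chaperone BiP, read 10.74, 10.61 and 10.37 in DMSO and 8.20, 9.34 and 9.36 in everolimus. It was 3.05-fold lower (log2 fold change -1.61, SE 0.27, adjusted p = 0.00382), with replicate 1 the lowest array. CRELD2 and MANF, secreted products of the same stress response, fell by 1.32 and 1.08, and SPCS1, a subunit of the signal peptidase, by 0.70. BiP itself, HSPA5, read 10.01, 9.52 and 8.92 in DMSO and 8.78, 8.21 and 8.57 in everolimus (log2 fold change -0.96, SE 0.25, adjusted p = 0.027), and was called in 8 of 12 leave-one-out fits, the exceptions being those without DMSO replicates 1 or 2 or everolimus replicates 2 or 3, with adjusted p up to 0.095. The count called lower in this list ranged from 5 (without DMSO replicates 1 or 2) to 13 (without MDA-MB-231 DMSO replicates 1, 2 or 3). Of 33 heat shock proteins and chaperonin subunits 8 were called lower (24.2%, against 7.23% of all genes) and 0 higher. BAG3, a co-chaperone that directs clients to autophagy, and PTGES3, the p23 co-chaperone of HSP90, fell by 0.85 and 0.81. CACYBP gave -2 on its brightest probe and 0.22 on the further one. HSPA1A and HSPA1B are near-identical genes whose probes cannot be told apart with certainty, and they gave -0.51 (called in 8 of 12 leave-one-out fits, not without DMSO replicates 1 or 2 or everolimus replicates 2 or 3, adjusted p up to 0.117) and -0.66 (called in 7 of 12 leave-one-out fits, not without DMSO replicates 1, 2 or 3 or everolimus replicates 2 or 3, adjusted p up to 0.118).

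The promoter of SDF2L1 is shown because genes of the unfolded protein response carry CCAAT boxes, which form part of the element that ATF6 binds together with NF-Y. The 250 bases before its start (chr22:21642052-21642301, + strand, same source) have CCAAT or its complement ATTGG in capitals.
SDF2L1: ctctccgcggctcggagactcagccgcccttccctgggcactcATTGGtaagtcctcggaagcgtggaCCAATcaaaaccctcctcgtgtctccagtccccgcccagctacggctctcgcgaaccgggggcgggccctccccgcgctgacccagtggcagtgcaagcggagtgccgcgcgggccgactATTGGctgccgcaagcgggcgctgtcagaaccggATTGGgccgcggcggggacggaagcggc
The box was found 4 times. It was in 24 of 30 (80%) of the promoters of the endoplasmic reticulum list, in 37.4% of those of all tested genes, in 41.2% of those called lower and in 34.4% of those called higher.

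With all arrays in the fit, the called members of the immunophilin and antioxidant lists were all lower. Of 22 FKBP and cyclophilin genes 5 were called lower (22.7%, against 7.23% of all genes) and 0 higher. The drug's own receptor is of the FKBP family, and the cyclophilins are a separate one. PPIB, a cyclophilin of the secretory pathway that folds collagen, read 11.33, 10.93 and 10.64 in DMSO and 9.85, 9.70 and 9.28 in everolimus. It was 2.56-fold lower with no overlap (log2 fold change -1.36, SE 0.21, adjusted p = 0.00254). PPIC fell by 0.86 (further probe -0.75), and FKBP2 by 0.57 on its brightest probe (further probes -0.18 and 0.07). FKBP1A, which encodes FKBP12, gave -0.28 on its brightest probe and was not called (adjusted p = 0.419). Its 4 probes differed, since ILMN_2333367 read 8.69, 8.79 and 8.81 in DMSO and 7.80, 7.79 and 7.53 in everolimus and was called lower (-1.06, adjusted p = 0.00052 over probes). ILMN_1683969 was also called lower (-0.83, adjusted p = 0.00698), while ILMN_1702237 gave -0.31 and was not called. Of 25 antioxidant genes 6 were called lower (24%, against 7.23% of all genes) and 0 higher. PRDX3, the mitochondrial peroxiredoxin, gave -2.07 on its brightest probe and -1.46 on the further one. PRDX4, the peroxiredoxin of the endoplasmic reticulum, read 12.70, 12.66 and 12.45 in DMSO and 11.51, 11.84 and 11.85 in everolimus (log2 fold change -0.87, SE 0.14, adjusted p = 0.00299), without overlap. The counts called lower ranged from 3 (without DMSO replicates 2 or 3 or everolimus replicate 3) to 7 (without everolimus replicate 1) for immunophilins and from 3 (without DMSO replicates 2 or 3) to 7 (without everolimus replicate 1) for antioxidant genes. Without everolimus replicate 1, 1 immunophilin and 3 antioxidant genes were called higher.

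Genes of amino acid supply and the ATF4 programme were called at shares near those of all genes. Of 27 tested 3 were called higher (11.1%, against 9.54% of all genes) and 2 lower (7.41%, against 7.23%). PSAT1, an enzyme of serine synthesis, read 9.79, 9.84 and 10.15 in DMSO and 7.57, 8.64 and 8.79 in everolimus (log2 fold change -1.59, SE 0.27, adjusted p = 0.00424), with no overlap. PPP1R15A, which encodes GADD34 and restores translation after stress, read 9.77, 9.88 and 9.89 in DMSO and 10.89, 12.05 and 12.19 in everolimus (log2 fold change 1.86, SE 0.28, adjusted p = 0.00254), and SLC38A2, an amino acid transporter, rose by 0.69. Among the 18 cytosolic tRNA synthetases, IARS1 and MARS1 fell by 1.31 and 0.90 and QARS1 rose by 0.77. Without everolimus replicate 1 the ATF4 list had 10 genes called higher in place of 3.

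Extracellular matrix genes, both chains of type I collagen among them, were called lower more often than higher. Of 39 extracellular matrix genes 10 were called lower and 2 higher (25.6% and 5.13%, against 7.23% and 9.54% of all genes). The median over the list was -0.15. COL1A1 read 9.70, 10.56 and 11 in DMSO and 8.85, 8.74 and 8.72 in everolimus, and COL1A2 read 9.46, 10.34 and 11.02 in DMSO and 7.30, 8.18 and 7.81 in everolimus. These encode the chains of type I collagen, and neither gene's groups overlapped. The log2 fold changes were -1.65 (adjusted p = 0.00231) and -2.51 (adjusted p = 0.00139), and the further probe of COL1A2 gave -0.99. SPARC, a collagen-binding matrix protein, gave -2. Enzymes and chaperones that act on collagen in the endoplasmic reticulum were among those that fell: P4HA1 (-1.48), the lysyl hydroxylase PLOD1 (-1.27) and the collagen chaperone SERPINH1 (-1). THBS2 and COL12A1 gave -0.77 and -0.71. COL6A2 was the larger of the 2 members called higher (1.10; called in 11 of 12 leave-one-out fits, not without everolimus replicate 3, adjusted p up to 0.0562), but its further probes gave 0.03 and 0.08. The count called lower ranged from 8 (without DMSO replicate 2 or everolimus replicates 2 or 3) to 12 (without everolimus replicate 1).

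Genes of the epithelial-mesenchymal list changed in both directions. Of 20 epithelial-mesenchymal genes 4 were called lower and 3 higher (20% and 15%, against 7.23% and 9.54% of all genes). The 3 were JUP and CLDN1, of cell junctions, and CD44, a surface receptor (called in 6, 3 and 5 of 12 leave-one-out fits). TWIST1, a transcription factor of mesenchymal cells, was the one called in every leave-one-out fit (-0.60). CDH11, a mesenchymal cadherin, gave -1.27 (called in 8 of 12 leave-one-out fits, not without DMSO replicates 1 or 2 or everolimus replicates 2 or 3, adjusted p up to 0.119). SNAI2, another mesenchymal transcription factor, was called lower on all its probes, but not in every leave-one-out fit. Of 33 TGF-beta and activin genes 4 were called higher and 5 lower (12.1% and 15.2%, against 9.54% and 7.23% of all genes). FST, which encodes the activin antagonist follistatin, read 7.47, 7.45 and 7.76 in DMSO and 8.93, 10.80 and 11.36 in everolimus (log2 fold change 2.80, SE 0.64, adjusted p = 0.0152). Its further probe gave 1.34, and it was called in 9 of 12 leave-one-out fits, the exceptions being those without DMSO replicate 2 or everolimus replicates 2 or 3, with adjusted p up to 0.0645. FSTL1, a related secreted glycoprotein, fell by 1.02. Among the actin genes WASF2, which drives branched actin growth, rose by 1.90 and CFL1, which severs filaments, fell by 0.64.

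The lysosomal list was called higher at a share near that of all genes, with some members well above it. Of 39 lysosome and V-ATPase genes 5 were called higher and 2 lower (12.8% and 5.13%, against 9.54% and 7.23% of all genes). The median was 0.21. CTSF, the cysteine protease cathepsin F, read 8.95, 8.61 and 8.11 in DMSO and 9.94, 9.52 and 9.86 in everolimus. It was 2.32-fold higher (log2 fold change 1.22, SE 0.22, adjusted p = 0.00543) with groups far apart. CLCN7, a chloride-proton exchanger of the lysosomal membrane, rose by 0.91. NPC1, which exports cholesterol from lysosomes, read 8.11, 8.46 and 8.73 in DMSO and 9.72, 11.27 and 11.24 in everolimus, 4.96-fold higher (log2 fold change 2.31, SE 0.38, adjusted p = 0.00355). ABCA1, which loads cholesterol onto apolipoproteins, read 9.04, 8.62 and 8.37 in DMSO and 9.74, 10.09 and 10.26 in everolimus (log2 fold change 1.35, SE 0.21, adjusted p = 0.00251), and neither gene's groups overlapped. Of 11 cholesterol export genes 4 were called higher and 1 lower, the fall being LIPA, lysosomal acid lipase, with -1.14 (called in 4 of 12 leave-one-out fits, not without MDA-MB-231 DMSO replicate 3, MDA-MB-231 everolimus replicates 2 or 3, DMSO replicates 1, 2 or 3 or everolimus replicates 2 or 3, adjusted p up to 0.158). Of 23 genes of cholesterol synthesis and uptake 2 were lower and 1 higher, none of them in every leave-one-out fit. Of 33 autophagy genes 5 were called higher and 4 lower (15.2% and 12.1%, against 9.54% and 7.23% of all genes). OPTN, a cargo receptor, read 8.98, 8.77 and 8.44 in DMSO and 9.87, 9.78 and 10.08 in everolimus (log2 fold change 1.18, SE 0.18, adjusted p = 0.00291), and ATG10, an enzyme that conjugates ATG12, rose by 0.80 on its brightest probe (further probe -0.02). ATG4B, which trims ATG8 proteins, gave -1.35 (called in 11 of 12 leave-one-out fits, not without everolimus replicate 3, adjusted p up to 0.0507). The count of lysosomal genes called higher ranged from 3 (without everolimus replicate 3) to 8 (without everolimus replicate 1).

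Promoters of this group are shown because the factors TFEB and TFE3, which mTOR complex 1 keeps in the cytoplasm, bind E-boxes in lysosomal genes, of which TCACGTGA is a common form. IGF2R, which sorts enzymes to lysosomes, was chosen after its values were seen and is on none of the lists. It read 10.70, 10.67 and 10.87 in DMSO and 11.93, 11.90 and 12.18 in everolimus (log2 fold change 1.26, SE 0.16, adjusted p = 0.00118), with no overlap. In the 250 bases before its start (chr6:159968832-159969081, + strand) the letters TCACGTGA are in capitals, and in those of CTSF (chr11:66568607-66568856, - strand) it is the shorter CACGTG. Both read the same on the 2 strands.
IGF2R: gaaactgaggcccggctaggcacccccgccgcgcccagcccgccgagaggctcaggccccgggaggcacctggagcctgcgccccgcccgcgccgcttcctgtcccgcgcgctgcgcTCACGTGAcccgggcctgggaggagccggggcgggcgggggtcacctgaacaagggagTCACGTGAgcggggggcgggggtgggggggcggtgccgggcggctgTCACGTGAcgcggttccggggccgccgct
CTSF: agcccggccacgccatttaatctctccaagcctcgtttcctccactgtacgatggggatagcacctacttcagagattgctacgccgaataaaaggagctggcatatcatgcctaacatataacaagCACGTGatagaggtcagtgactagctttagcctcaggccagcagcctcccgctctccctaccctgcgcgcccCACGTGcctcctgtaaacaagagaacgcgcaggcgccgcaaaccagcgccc
IGF2R held TCACGTGA 3 times, from 133 to 29 bases before the start, and CTSF held CACGTG 2 times. CACGTG was in 11 of 28 (39.3%) lysosomal promoters, in 10.4% of those of all tested genes, in 14.4% of those called higher and in 8.61% of those called lower. TCACGTGA, which contains it, was in 6 of 28 (21.4%) lysosomal promoters, 2.06% of all, 4.1% of those called higher and 1.02% of those called lower. CACGTG also contains the hypoxia core ACGTG, so these counts are not independent. The forkhead letters GTAAACA were in 2.81% of promoters called higher and 1.46% of those called lower, against 2.32% of all.

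In the nucleus the histone methyltransferase SUV39H1, which places trimethylation on lysine 9 of histone H3, fell. SUV39H1 read 8.56, 8.52 and 8.43 in DMSO and 7.76, 7.39 and 7.16 in everolimus, a 2.09-fold lower level with no overlap (log2 fold change -1.07, SE 0.15, adjusted p = 0.00195). It was the 1 gene called lower of 21 on the H3K9 list (4.76%, against 7.23% of all genes). Called higher were 3 (14.3%, against 9.54%). These were the co-repressor TRIM28 at 0.90 (called in 11 of 12 leave-one-out fits, not without everolimus replicate 3, adjusted p up to 0.0557), the methyltransferase SETDB1 at 0.74 (called in 7 of 12 leave-one-out fits, not without DMSO replicates 1, 2 or 3 or everolimus replicates 2 or 3, adjusted p up to 0.0905) and the demethylase KDM3A at 0.52 (called in 10 of 12 leave-one-out fits, not without DMSO replicate 2 or everolimus replicate 2, adjusted p up to 0.0641). Lamin B1 (LMNB1), of the nuclear lamina, read 8.73, 8.96 and 8.96 in DMSO and 7.26, 7.25 and 7.10 in everolimus. It was 3.20-fold lower (log2 fold change -1.68, SE 0.16, adjusted p = 0.00034). NUP62 of the nuclear pore and BANF1, which bridges chromatin and envelope, fell by 0.97 (further probe -0.66) and 0.79 (further probe -0.74). Of the 25 genes of their list 5 were called lower and 1 higher (20% and 4%, against 7.23% and 9.54% of all genes).

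Genes of homologous recombination, the repair of double-strand breaks from a sister copy, were called, in either direction, at a share near the 16.8% of all genes. Of 30 tested 4 were called lower (13.3%, against 7.23% of all genes) and 2 higher (6.67%, against 9.54%), with a median of 0.06. XRCC2, which acts in this repair, read 10.13, 10.23 and 10.43 in DMSO and 10.95, 11.12 and 11.25 in everolimus (log2 fold change 0.84, SE 0.17, adjusted p = 0.0084), but its further probe gave -0.02. SEM1, which binds BRCA2 and is also a proteasome subunit, fell by 0.79. BRCA1 read 8.02, 8.49 and 8.71 in DMSO and 7.46, 8.57 and 8.98 in everolimus (log2 fold change -0.07, SE 0.32, adjusted p = 0.915), with a further probe at -0.09. EXO1, a nuclease that resects broken ends, read 7.72, 8.81 and 9.39 in DMSO and 6.97, 8.93 and 9.05 in everolimus (log2 fold change -0.32, SE 0.53, adjusted p = 0.737). In both genes everolimus replicate 1 was the lowest of the 6 arrays and the other two lay within or above the DMSO range. Without replicate 1 the list had 6 called higher and 5 lower, with a median of 0.186. Of 37 excision and mismatch repair genes 6 were called higher and 6 lower (16.2% each, against 9.54% and 7.23% of all genes). ERCC1, of the nuclease that cuts on the 5′ side of a lesion, was up by 1.08 on its brightest probe (further probes -0.83, -0.08 and 0.76). The mismatch factor PMS2 was down (-0.63).

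Among splicing factors more were called lower than higher. Of 53 tested 14 were called lower and 3 higher (26.4% and 5.66%, against 7.23% and 9.54% of all genes), with a median of -0.36. SNRPF, a ring protein of the spliceosomal particles, read 11.68, 11.75 and 12.03 in DMSO and 11.33, 10.76 and 10.57 in everolimus (log2 fold change -0.93, SE 0.18, adjusted p = 0.00768), with a further probe at -0.91, and SRSF9 fell by 0.65. Only these 2 were called in every leave-one-out fit, and the count called lower ranged from 3 (without DMSO replicate 3) to 16 (without everolimus replicate 1).

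Among regulators of entry into S phase, CDK2 and SKP2 fell. Of 25 G1/S genes 3 were called lower (12%, against 7.23% of all genes) and 0 higher. CDK2, the kinase of S phase entry, read 9.32, 9.37 and 9.36 in DMSO and 8.23, 8.16 and 8.11 in everolimus. SKP2, which targets the CDK inhibitor p27 for destruction, read 9.85, 10.22 and 10.49 in DMSO and 8.89, 8.88 and 8.82 in everolimus. Neither gene's groups overlapped, with log2 fold changes of -1.18 (adjusted p = 0.000301) and -1.32 (adjusted p = 0.00242). Further probes gave -0.29 for CDK2 and -1.05 and -0.29 for SKP2. RRM2, the regulated subunit of ribonucleotide reductase, fell by 1.27, and TIMELESS, of the replication fork, fell by 0.76. KIF23, a motor of cytokinesis, read 8.15, 8.39 and 8.57 in DMSO and 7.07, 7.55 and 7.56 in everolimus (log2 fold change -0.98, SE 0.20, adjusted p = 0.00929), with a further probe at -0.19. It was 1 of 2 members called lower of 46 mitosis genes (4.35%, against 7.23% of all genes). With 0 called higher, the list median was -0.23. CKS2 was the other, with -0.95 on its brightest probe and -1.17 on the further one (called in 9 of 12 leave-one-out fits, not without DMSO replicates 2 or 3 or everolimus replicate 3, adjusted p up to 0.0844).

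Everolimus replicate 1 changed the counts of several groups and turned the sign of the mitosis median. In the mitosis list the median on the everolimus arrays, relative to the DMSO means, was -1.28, 0.26 and 0.27 for replicates 1, 2 and 3. With all arrays the list gave 0 genes higher and 2 lower, and without replicate 1 it gave 9 and 2, with a median of 0.26 in place of -0.23. Calls over all 11764 genes also rose without that array, from 1122 higher and 850 lower (16.8% called) to 1980 and 1309 (28% called). A gain in the count of a list is to be read beside this general gain. Interferon and antigen presentation genes (37 tested) had array medians of -0.55, 0.32 and 0.75, and went from 2 called higher and 1 lower to 10 and 3. DNA replication genes (44) went from 2 and 6 to 10 and 5. NF-kB genes and cytokines (30) went from 4 called higher to 11, p53 targets (20) from 1 to 8, and clustered histones (33) from 4 to 15. Histone genes are near-identical copies, so their probes are uncertain. By contrast the respiratory chain went from 30 to 33 called lower, and the proteasome from 14 to 14.

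**Figure D2:**
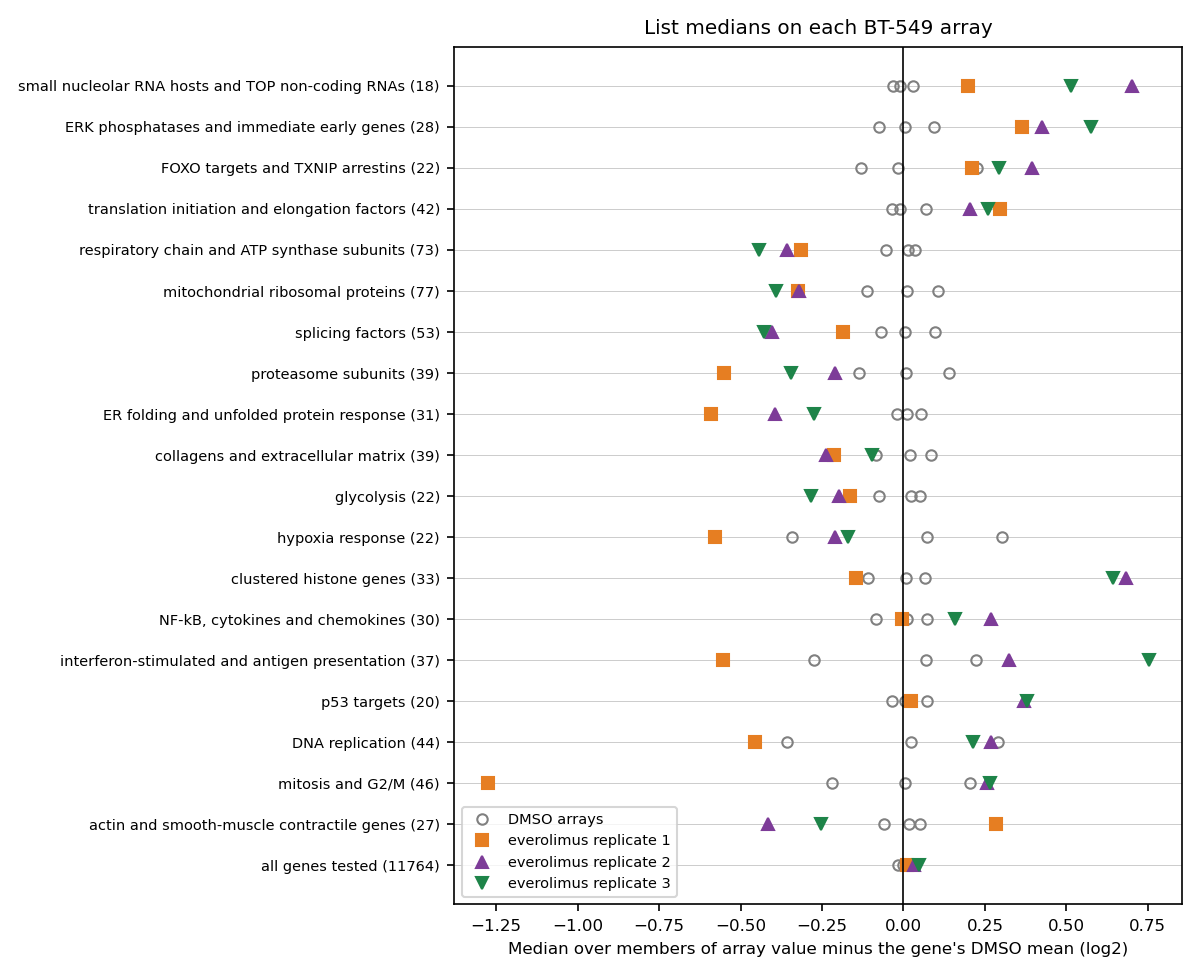
Median over the tested members of a list (number in brackets) of the array value minus the gene's DMSO mean, in log2 units, for each of the 6 BT-549 arrays. Open circles are the DMSO arrays and filled symbols the everolimus replicates. On respiratory chain and mitochondrial ribosomal genes the 3 everolimus arrays lie together below the DMSO arrays, and on mitosis genes replicate 1 lies at -1.28 while the other two lie at 0.26 and 0.27.

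The genes of this paragraph were chosen after their values were seen, for a wide gap between replicate 1 and the other everolimus arrays. CXCL8, the neutrophil chemokine interleukin 8, read 7.46, 8.76 and 9.44 in DMSO and 7.58, 12.99 and 12.89 in everolimus, and was not called (log2 fold change 2.60, SE 1.16, adjusted p = 0.153), with a further probe at 2.05. IL6 read 6.68, 7.04 and 7.66 in DMSO and 6.94, 10.46 and 10.33 in everolimus (log2 fold change 2.12, SE 0.84, adjusted p = 0.113). Replicate 1 sat with the DMSO arrays in both. MMP3, a matrix protease, read 6.56, 6.72 and 6.84 in DMSO and 6.5, 11.32 and 11.37 in everolimus (log2 fold change 3.02, SE 1, adjusted p = 0.0626), with 2 of the 3 DMSO values below the floor, so the change is compressed. The CDK inhibitor gene CDKN1A read 8.85, 8.82 and 8.62 in DMSO and 7.44, 11.14 and 11.19 in everolimus (log2 fold change 1.16, SE 0.81, adjusted p = 0.364), with a further probe at 0.33, so replicate 1 was the lowest of the 6 arrays and the other two the highest. SNORD3D, which encodes the U3 small nucleolar RNA, read 8.68, 10.42 and 11.15 in DMSO and 8.30, 13.49 and 13.42 in everolimus (log2 fold change 1.65, SE 1.28, adjusted p = 0.417). Genes that were high in replicate 1 included ACTA2, smooth-muscle actin, which read 14, 13.67 and 12.42 in DMSO and 14.26, 10.86 and 10.86 in everolimus, and SCD, a fatty acid desaturase, which read 13.62, 13.24 and 10.75 in DMSO and 12.44, 9.73 and 9.67 in everolimus. In ACTA2 and SCD the DMSO arrays also differed, with replicate 3 the lowest, and neither was called (adjusted p = 0.241 and 0.161).

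**Figure D3:**
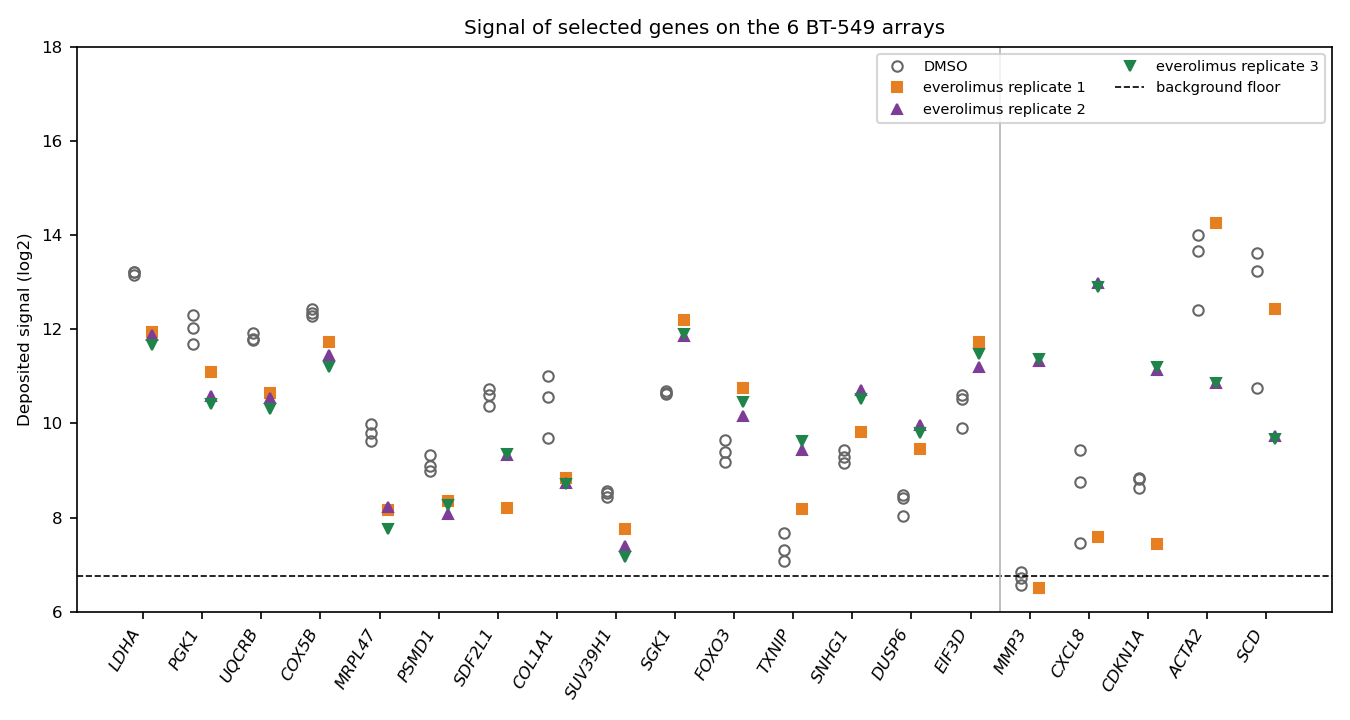
Deposited log2 signal of selected genes on the 6 BT-549 arrays, with the background floor of 6.77 dashed. Open circles are DMSO arrays and filled symbols the everolimus replicates, and levels of different genes are not comparable. Left of the vertical line the 3 everolimus arrays lie on 1 side of the DMSO arrays, as in LDHA, and right of it everolimus replicate 1 lies apart from the other two, as in MMP3.

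Where a gene had several probes, the probes mostly moved the same way, but not always. Above the floor were 15583 probes, of which 2656 (17%) were called, 1320 higher and 1336 lower. There were 3117 genes with at least 2 such probes. In 2131 of them no probe was called, in 68 all probes were higher, in 136 all were lower, and in 10 a probe was called higher and another lower. Of the 644 called on the brightest probe, 493 (76.6%) had all probes on 1 side of 0, against 64.7% of all genes with several probes, and 203 had all probes called the same way. Of the 2473 not called on the brightest probe, 342 had another probe that was. The kind of probe went with the direction: genes with 1 probe gave 9.22% called higher and 6.14% lower, the brightest of several gave 10.4% and 10.2%, and further probes gave 4.48% and 12.3%.

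Genes whose probes were all called the same way were not all stable when single arrays were left out. Among those higher on all probes, AHNAK2, a large scaffold protein, read 9.93, 9.82 and 9.58 in DMSO and 11.87, 10.78 and 11.06 in everolimus on its brightest probe (log2 fold change 1.46, SE 0.45, adjusted p = 0.0481), and 1.87 on the further one (called in 3 of 12 leave-one-out fits, not without MDA-MB-231 DMSO replicate 2, MDA-MB-231 everolimus replicates 2 or 3, DMSO replicates 1, 2 or 3 or everolimus replicates 1, 2 or 3, adjusted p up to 0.121). The zinc finger gene ZNF706 gave 1.37 and 1.31, and MIB2, a ubiquitin ligase of Notch signalling, 1.13 and 1.22. Among those lower, PGAM1 gave the largest falls, -2.66 and -2.82. GNG10, a G protein gamma subunit, gave -1.27 and -1.84 (called in 5 of 12 leave-one-out fits, not without MDA-MB-231 DMSO replicate 2, MDA-MB-231 everolimus replicates 2 or 3, DMSO replicates 1 or 2 or everolimus replicates 2 or 3, adjusted p up to 0.163). DBI, the acyl-CoA binding protein, gave -1.06 and -1.14.

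The 10 genes with probes called in opposite directions were BLOC1S6, CHMP5, EEF1B2, FGF2, HM13, PPA2, RPP25L, SERF2, SYAP1 and TPM1. For BLOC1S6, of a complex that forms lysosome-related organelles, probe ILMN_2105033 read 10.42, 10.36 and 10.40 in DMSO and 11.03, 11.93 and 12.08 in everolimus, while probe ILMN_1733666 read 8.20, 7.96 and 7.93 against 7.68, 7.02 and 7.06. For HM13, the signal peptide peptidase, probe ILMN_1807833 gave -1.56 and probe ILMN_1766269 gave 0.35. For CHMP5, of the ESCRT-III complex, the values were 0.41 on ILMN_3251545 and -1.60 on ILMN_2094166. Probes of a gene can read different transcripts, and which transcripts these probes read was not analysed here.

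**Figure D4:**
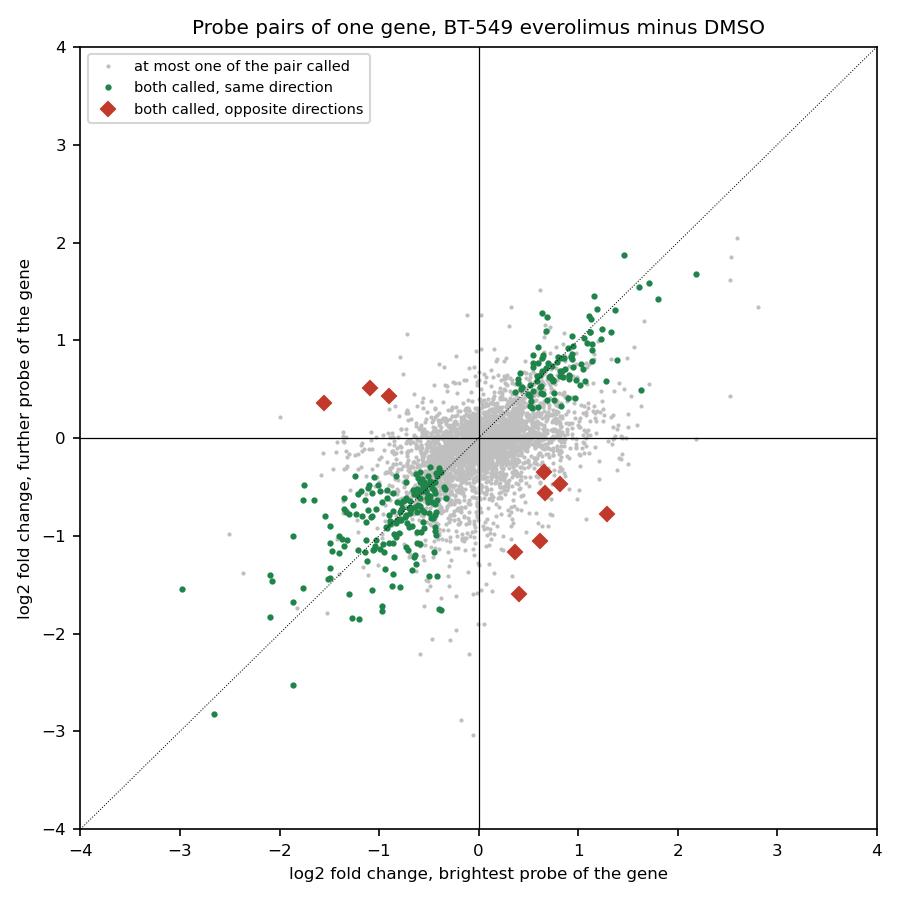
Log2 fold change (everolimus minus DMSO) of a gene's further probe against that of its brightest probe, for 3819 pairs in 3117 genes. Green points are the 275 pairs with both called in the same direction, red diamonds the 10 pairs called in opposite directions, and the dotted line marks equal change.

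The response differed from that of MDA-MB-231 in 75 genes by the test of the difference itself (limma interaction, adjusted p under 0.05), which is 0.638% of genes tested. Of these 37 had the more positive change in BT-549 and 38 the more negative, and 73 were called in BT-549. Before adjustment 1842 genes had p under 0.05. Leaving out single arrays gave from 0 (for example without DMSO replicate 2) to 1219 (without everolimus replicate 1 of BT-549). In BT-549 the glycolytic enzymes PGAM1 and PGK1 fell while in MDA-MB-231 their changes were -0.52 and 0.07 (differences -2.15, adjusted p = 0.0392, and -1.37, adjusted p = 0.0482). COL1A2 changed by -2.51 in BT-549 and 0.04 in MDA-MB-231 (difference -2.55, adjusted p = 0.0448). LMNB1 and CDK2 gave differences of -1.61 and -1.08 (adjusted p = 0.0269 and 0.0269), and both were near 0 in MDA-MB-231 (-0.07 and -0.10).

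TFPI and SLIT2 were among the named genes whose fold changes had opposite signs in the lines. TFPI, which inhibits the tissue factor pathway of coagulation, read 9.53, 9.40 and 9.39 in DMSO and 8.70, 9.07 and 8.96 in everolimus in BT-549 (log2 fold change -0.53, SE 0.12, adjusted p = 0.0142), with further probes at -0.54 and -0.24, and changed by 0.82 in MDA-MB-231 (difference -1.35, adjusted p = 0.0257). CFLAR, which encodes the caspase-8 inhibitor c-FLIP, read 6.99, 7.10 and 7.41 in DMSO and 8.33, 8.59 and 9.09 in everolimus in BT-549 (log2 fold change 1.5, SE 0.18, adjusted p = 0.00106), against 0.08 in MDA-MB-231 (difference 1.42, adjusted p = 0.0448). SLIT2, an axon guidance ligand, and its partner SRGAP1 both rose in BT-549, by 1.26 and 1.48, against -0.26 and 0.08 in MDA-MB-231 (adjusted p of the differences = 0.0269 and 0.0269). CITED4, a transcriptional co-activator, rose by 1.84 against 0.18 (adjusted p of the difference = 0.015). SUV39H1 changed by -0.83 in MDA-MB-231, a difference of -0.24 that did not pass (adjusted p = 0.623).

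**Figure D5:**
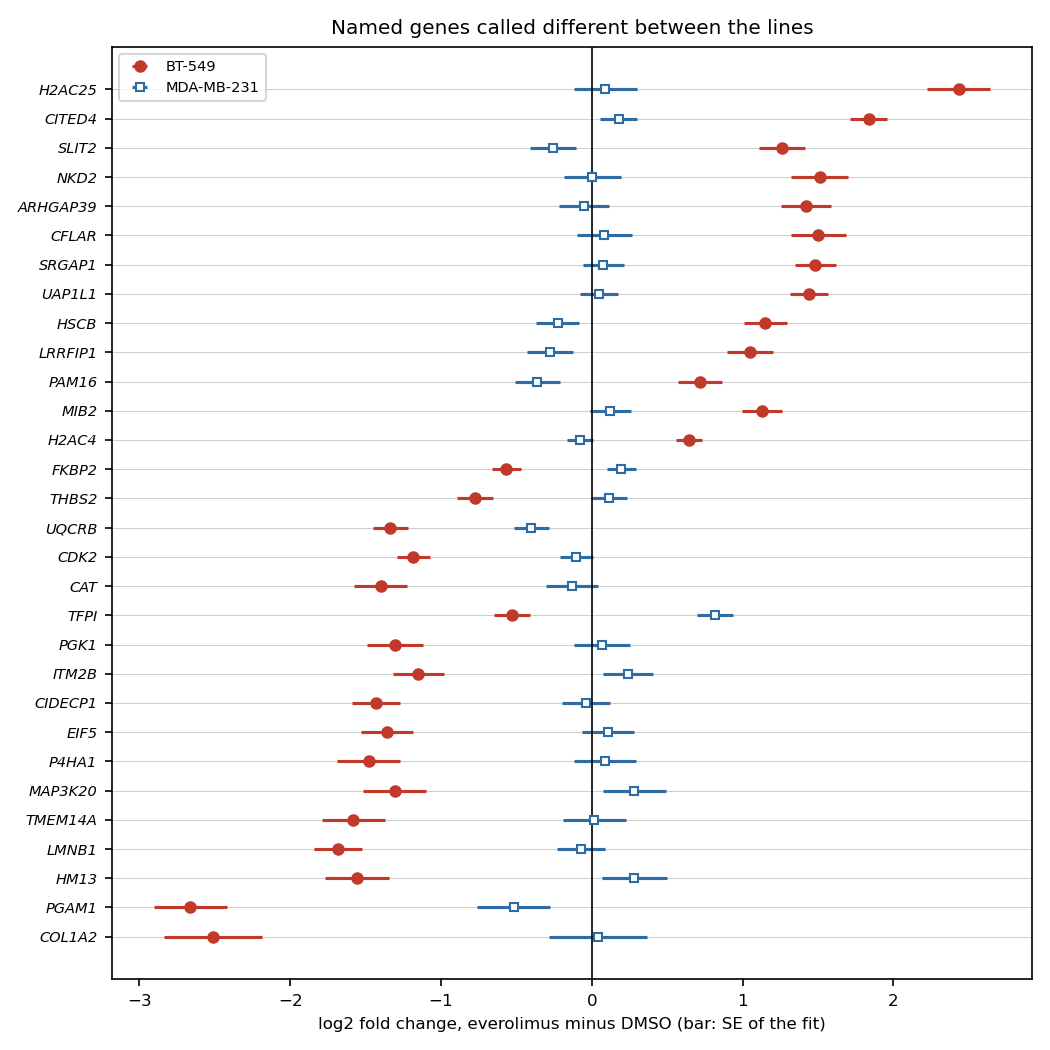
Log2 fold change, everolimus minus DMSO, of 30 named genes called different between the lines, in BT-549 (red circles) and MDA-MB-231 (blue squares), with bars of 1 SE of the fit. The square of every gene but TFPI lies nearer to 0 than its circle.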

How the data were processed

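Total RNA of 12 samples of 2 lines was amplified, stained with streptavidin-Cy3 and read on bead arrays, per the labels' protocols. The authors deposited log2 signals (lowest 6.24, highest 14.56), and the base of the logarithm was inferred from that range. Medians over all probes were equal on the 12 arrays (6.65), but the kind of normalization between arrays was not tested. The software behind the signals is not given in the sources used here. The 12 columns of a second, unnormalized table could not be matched by name to any label, so it was not used here. The background correction and detection filter of the planned design therefore could not be run. In their place a probe was kept where at least 3 arrays exceeded a floor of 6.77, the background peak (6.55) plus 3 SDs (0.0724).

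Of 47230 probes 30113 had 1 gene symbol in the platform annotation, 8 had several and 17109 were not listed. The brightest probe stood for a gene, with further probes beside it. Group means were fitted to the log2 values of all 12 arrays with limma 3.58.1 in R 4.3.3 (8 residual degrees of freedom, 2.89 from the prior), tested 2-sided with Benjamini-Hochberg adjustment over all 11764 genes or 15583 probes, and called under 0.05. On simulated data with 200 changed genes 15%, 73.5% and 95% were recovered at log2 changes of 0.5, 1 and 2, with 3, 9 and 15 false calls. The simulated noise was independent between arrays, with the same SD on all arrays for a gene. No array in it stood apart as everolimus replicate 1 does, so these rates may not carry over to the data. Arrays give no read depth, and their number limits the precision.

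The comparison, the members and all gene lists were chosen with earlier results of these data known, so no count over a list is independent support. Genes were named by a rule: SUV39H1, MTOR and FKBP1A, the largest changes with groups apart, the largest changes seen on all probes, the largest opposite probes, the largest differences between lines, and up to 6 called members of each list with the smallest p together with members that define a group. Members given as defining a group, such as COX5B, were not picked by the smallest p. Not every gene under the rule is given, and ZNF581, the largest rise with groups apart, is among those left out. Promoters came from RefSeq (GRCh38.p14). Whether replicate numbers pair the arrays was checked from the correlation of same-numbered deviations, which were 0.500, 0.0787 and 0.411, not all above the limit of 0.1. DMSO replicate 2 had the smallest deviations of the BT-549 arrays, so its low correlation does not decide whether the arrays are paired. Alternatives were the floor, the background, the scaling, the samples fitted, the replicate block, the prior, array weights, the mean of probes and leaving out arrays.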

Additional observations from a re-analysis of the deposited data

Results flagged for a closer look

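In 30 named genes the everolimus effect differed between the lines by the test of the difference (limma interaction, adjusted p under 0.05), 13 with the higher and 17 with the lower change in BT-549. Values are the BT-549 minus the MDA-MB-231 log2 fold change. Higher in BT-549 were the histone genes H2AC25 (2.34) and H2AC4 (0.72), the co-activator CITED4 (1.66), the guidance ligand SLIT2 (1.52) and its partner SRGAP1 (1.41), ARHGAP39 (1.47), the Wnt regulator NKD2 (1.51), CFLAR (1.42), UAP1L1 (1.39), LRRFIP1 (1.32), the ubiquitin ligase MIB2 (1.01), and the mitochondrial genes HSCB (1.38) and PAM16 (1.08).

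Lower in BT-549 were the matrix genes COL1A2 (-2.55), P4HA1 (-1.57) and THBS2 (-0.89), the glycolytic genes PGAM1 (-2.15) and PGK1 (-1.37), HM13 (-1.84), LMNB1 (-1.61), TMEM14A (-1.60), the kinase MAP3K20 (-1.59), EIF5 (-1.47), CIDECP1 (-1.39), ITM2B (-1.39), TFPI (-1.35), CAT (-1.27), CDK2 (-1.08), UQCRB (-0.94) and FKBP2 (-0.76). For HM13 a further probe was called in the other direction in BT-549, and the further probes of EIF5 and UQCRB did not change with the brightest one. The test of the difference gave 0 calls over all genes when replicate 2 or 3 of either MDA-MB-231 group, or DMSO replicate 2 of BT-549, was left out, as given in the next part.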

How the results depend on the processing

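The 1972 calls (1122 higher, 850 lower) stayed within 1.5 times under the other floors (1741 to 2059), the subtracted background (1993), equal medians (1965, of which 44.6% higher), the trended robust prior (1945) and the mean of probes (1949). With only the 6 BT-549 arrays 1165 genes were called (654 higher, 511 lower). With array weights there were 6001 (3451 and 2550), and without the 4 replicate 1 arrays 4498 (2607 and 1891). The replicate block gave 3282 (1872 and 1410), including 1947 of the 1972, and it raised the probes called in BT-549 from 2656 to 4447, against 1680 with the 6 arrays. The correlations given above do not decide whether replicate numbers pair these arrays, since DMSO replicate 2 deviated little from its group mean. Everolimus replicate 2 correlated best with DMSO replicate 3 (0.465). In each group of either line the replicate 1 array had the lowest array weight. Whether the replicate 1 arrays share an effect was not tested. Leaving out 1 array gave 795 to 3289 calls, 470 to 1980 of them higher and 325 to 1309 lower: 1231, 795 and 1456 without DMSO replicates 1, 2 and 3, and 3289, 1204 and 860 without everolimus replicates 1, 2 and 3. The 75 genes different between lines were 20 with the stricter floor, 23 with the background subtracted, 16 with the trended prior, 707 with the replicate block, 3522 with array weights and 2345 without the 4 replicate 1 arrays. Leaving out 1 array gave 0 to 1219 of them. There were 0 without DMSO replicates 2 or 3 or everolimus replicates 2 or 3 of MDA-MB-231 or DMSO replicate 2 of BT-549, where 1419 to 1613 genes had an unadjusted p under 0.05 in limma. The counts were 31 without everolimus replicate 1 of MDA-MB-231, 1219 without that of BT-549, and 11, 16 and 2 without DMSO replicate 1, everolimus replicate 2 and everolimus replicate 3 of BT-549. The mean of probes turned the sign of CHMP5 (-0.52), PPA2 (-0.22), EEF1B2 (-0.17) and CD44 (-0.13), whose further probes had the other sign. Other causes were not tested. Genes near the floor have compressed fold changes, and 3 arrays per group leave changes under 1 log2 unit often uncalled.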
